A study of Homo sapiens with 6 samples.

Results

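The PARP genes encode enzymes of ADP-ribosylation, and DTX3L encodes the ubiquitin ligase that works as the partner of PARP9. Counts for 10 of these genes were taken by gene symbol from the 26364 symbols listed for each library: PARP1, PARP2, PARP3, PARP4, PARP8, PARP9, PARP10, PARP12, PARP14 and DTX3L. All 10 were found and all 10 passed the filter on low counts. The libraries came from ZR-75-30, an established human breast adenocarcinoma line of epithelial type. In 3 of them the cells had been infected with a lentivirus made from pLVX that carried CDK12 (called CDK12 libraries), and in the other 3 with the pLVX control lentivirus (control libraries), so that both groups had been through infection. The series title names the targets of CDK12 as its subject, the cyclin K-dependent kinase that phosphorylates RNA polymerase II. The design text calls the 3 samples of a group biological replicates without saying whether each had its own infection, so p-values measure only the spread between these libraries.

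PARP enzymes split NAD+ and attach its ADP-ribose to proteins or nucleic acids, some as single units and some as chains. PARP1, PARP2 and PARP3 bind DNA breaks and mark them for repair. PARP9, PARP10, PARP12, PARP14 and DTX3L are induced by interferon through the transcription factor ISGF3, which holds STAT2 and IRF9 and binds a DNA element called the ISRE. PARP9 and DTX3L form a complex, and their genes lie head to head on chromosome 3 beside PARP15 and PARP14.

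The libraries held 23628890 to 26543653 counts in the CDK12 group and 21178163 to 25014857 in the control group. CDK12 itself stood at 2009 to 2240 CPM (counts scaled to a common library total, with TMM factors) in the CDK12 libraries and at 72.8 to 81.8 CPM in the control libraries, so each library matched its label. The 10 breast epithelial markers, EPCAM and KRT8 among them, summed to 13600 to 14300 CPM in the CDK12 libraries and 15600 to 16300 CPM in the controls. ERBB2 made the largest part of this sum, with means of 7357 CPM in the CDK12 libraries and 8656 CPM in the controls. KRT8, KRT18, KRT7, GATA3 and ERBB2 were called lower (edgeR adjusted p = 0.000171, 0.00151, 3.12e-06, 0.0157 and 8.05e-05). KRT19, FOXA1 and ESR1 lay lower without a call (edgeR adjusted p = 0.132, 0.175 and 0.0594). EPCAM was not called (edgeR adjusted p = 0.353), and CDH1 lay higher without a call (edgeR adjusted p = 0.0891). Over all genes tested, lower calls were made for 18.9%. The 8 leukocyte markers summed to 3.35 to 3.58 CPM in the CDK12 libraries and 5.36 to 6.43 CPM in the controls. Of these, CD3D was at 0 in all libraries and CD3E at 0 to 3 counts. PTPRC, the pan-leukocyte CD45 gene, had 10, 10 and 7 counts in the CDK12 libraries and 69, 59 and 74 in the controls, while the monocyte marker CD14 went the other way with 23, 16 and 25 counts in the CDK12 libraries and 12, 12 and 8 in the controls (edgeR adjusted p = 0.0339). CD68 was not called (edgeR adjusted p = 0.704). The 7 fibroblast markers summed to 60.3 to 71.3 CPM in the CDK12 libraries and 46.7 to 51.6 CPM in the controls, nearly all of it COL1A1, and the 4 endothelial markers to 1.56 to 2.17 CPM and 2.45 to 3.29 CPM. COL3A1 was called lower (1, 3 and 4 counts in the CDK12 libraries and 14, 13 and 14 in the controls, edgeR adjusted p = 0.000181), and COL1A2, not tested, had 3, 0 and 1 counts against 5, 8 and 7. The part of such markers in the results on the PARP genes was not tested. Fewer cells that express a gene and less RNA of it per cell cannot be told apart in these bulk samples.

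The start regions of the interferon-inducible members are shown first. The ISRE is the element that ISGF3 is known to bind, and its part in the levels of these genes was not tested. Promoter windows of 250 bases before and 50 bases from the annotated start were taken from RefSeq on GRCh38.p14. Of the members, 8 matched that table, some of them with several starts; PARP10 and PARP4 did not. Capitals mark the ISRE, searched on both strands as GAAA, any 2 bases and GAAA again, and TTCNNNGAA, which reads the same way on both strands and stands for the GAS element, known from interferon gamma responses. Positions count from the start, with 1 as its first base. The first pair of sequences is the same stretch, chr3:122564322-122564351, read on the minus strand from the inner start of PARP9 (bases -51 to -22) and on the plus strand for DTX3L (bases -16 to 14). The PARP14 sequence is chr3:122680794-122680823 on the plus strand (bases -45 to -16) and holds both elements. The PARP12 sequence is chr7:140062942-140062971 on the minus strand (bases -20 to 10).
PARP9: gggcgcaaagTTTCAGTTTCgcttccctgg
DTX3L: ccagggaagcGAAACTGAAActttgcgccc
PARP14: gagttTTCCAGGAAacGAAAGCGAAAgagt
PARP12: ccggggccgcTTTCGGTTTCgtttcccgcc

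The 60 bases before the start of each DNA-repair member are printed for comparison. They are chr1:226408094-226408153 on the minus strand for PARP1, chr14:20343575-20343634 on the plus strand for PARP2 and chr3:51942303-51942362 on the plus strand for PARP3. Neither element is in them.
PARP1: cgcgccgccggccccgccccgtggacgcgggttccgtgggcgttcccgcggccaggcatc
PARP2: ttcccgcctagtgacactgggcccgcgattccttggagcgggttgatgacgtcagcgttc
PARP3: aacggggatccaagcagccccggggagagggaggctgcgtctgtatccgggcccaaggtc

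The ISRE letters were in a promoter window of PARP9, DTX3L, PARP14 and PARP12, and in none of PARP1, PARP2, PARP3 or PARP8. Over all 35116 promoter windows in the table, 3.57% held them. The GAS letters, in 7.66% of windows, were in those of PARP14 and PARP2. The DTX3L start and the inner PARP9 start are 37 bases apart and point away from each other, and 1 ISRE match reaches across the DTX3L start (bases -6 to 4) and lies at bases -41 to -32 of PARP9. The outer PARP9 start, 446 bases away from the DTX3L start, had no match. A match is a run of letters and not a measured binding site.

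**Figure D1:**
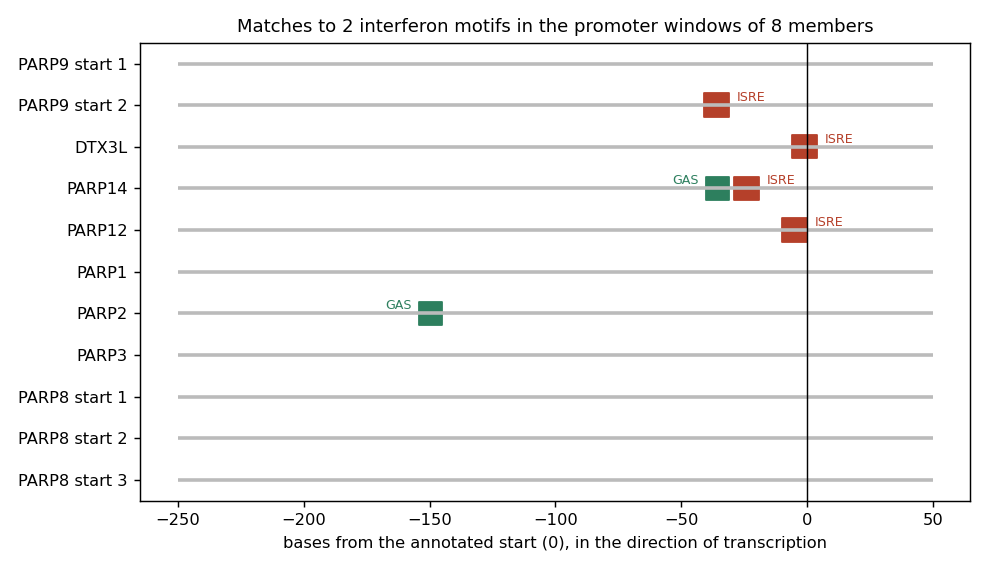
Matches to the ISRE letters (red) and the GAS letters (green) in the RefSeq promoter windows of 8 members, 1 line for each annotated start; the x axis gives bases from the start in the direction of transcription. The red boxes of PARP9, DTX3L, PARP14 and PARP12 lie within 41 bases of a start, and the lines of PARP1, PARP3 and PARP8 are empty.

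All 5 interferon-inducible members were lower in the CDK12 libraries, with log2 fold changes (CDK12 over control) from -0.53 to -0.21 and a median of -0.38. Of the 3 DNA-repair members, PARP2 was called lower by a small margin and PARP1 and PARP3 were not called. PARP4 and PARP8 were not called either. With p-values of edgeR's quasi-likelihood test adjusted by the Benjamini-Hochberg method over all genes tested and called at 0.05 (written below as the edgeR adjusted p), 6 of the 10 members were lower and 0 were higher; a call in either direction was made for 35.1% of the 14665 genes tested, lower calls for 18.9% and higher calls for 16.2%. At an unadjusted p under 0.05 no member was higher, and DESeq2 and limma-voom called 0 higher as well. The median log2 fold change of all genes tested was 0.00, against -0.19 for the 10 members. The members were not drawn at random from these genes.

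**Figure D2:**
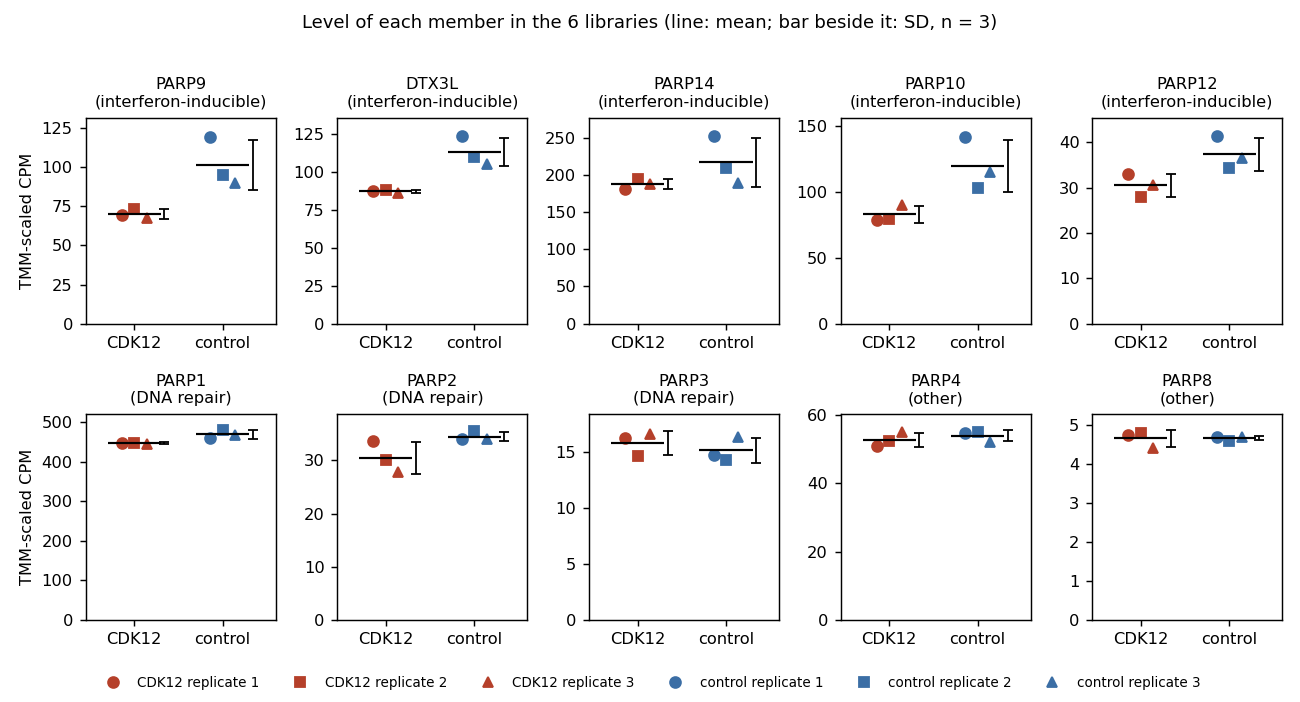
TMM-scaled CPM (y axis, from 0) of each member in the 3 CDK12 libraries (red) and the 3 control libraries (blue); marker shapes give the replicate number, lines the mean and bars the SD. For PARP9, DTX3L, PARP10 and PARP12 all red points lie under all blue ones, and control replicate 1 is the highest blue point for each of the 5 interferon-inducible members.

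PARP9 has macrodomains that bind ADP-ribose and acts together with DTX3L. It stood at 69.8, 73.7 and 67.6 CPM in CDK12 replicates 1 to 3, against 119.5, 95.2 and 89.9 CPM in control replicates 1 to 3. The groups did not overlap, and control replicate 1 stood above the other controls. The fitted log2 fold change was -0.53 (SE 0.07; edgeR adjusted p = 5.97e-07), a 1.44-fold lower level. Without control replicate 1 it was -0.40 (adjusted p = 2.15e-06 by the same test).

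DTX3L, which adds ubiquitin to histones and other targets, showed the tightest CDK12 group of the 5. Its level was 87.2, 87.9 and 86.1 CPM in the CDK12 libraries, against 124, 110 and 105 CPM in the controls. No control library came down to the CDK12 range. The log2 fold change was -0.38 (SE 0.05; edgeR adjusted p = 1.41e-06), and -0.31 without control replicate 1 (adjusted p = 4.2e-05 by the same test).

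PARP14 adds single ADP-ribose units and is known as a cofactor of STAT6 in interleukin 4 signalling. It was the least changed of the 5, with 182, 196 and 188 CPM in the CDK12 libraries, against 254, 210 and 189 CPM in the controls. Here the groups overlapped, since control replicate 3 lay within the CDK12 range. The log2 fold change was -0.21 (SE 0.06; edgeR adjusted p = 0.0116). It was -0.08 without control replicate 1 and no longer called (edgeR adjusted p = 0.266), so the PARP14 call depended on that library. With that library kept, the DESeq2 Wald test gave -0.20 and made no call (adjusted p = 0.248). The call thus also depended on the test.

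PARP10, which also adds single units, had 78.8, 79.5 and 90.0 CPM in the CDK12 libraries, against 141, 103 and 114.5 CPM in the controls. The groups stayed apart, with CDK12 replicate 3 the highest of its group and control replicate 2 the lowest of its own. The log2 fold change was -0.53 (SE 0.07; edgeR adjusted p = 1.36e-06), and -0.40 without control replicate 1 (adjusted p = 7.02e-06). In RefSeq the PARP10 gene overlaps GRINA and SPATC1, so reads of these genes could be mixed if strand was not used in counting.

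PARP12, a zinc-finger member that binds RNA, had 33.04, 27.97 and 30.51 CPM in the CDK12 libraries, against 41.43, 34.30 and 36.57 CPM in the controls. The highest CDK12 library, replicate 1, lay just under the lowest control, replicate 2. Its log2 fold change was -0.29 (SE 0.07; edgeR adjusted p = 0.00149), and -0.22 without control replicate 1 (adjusted p = 0.0237).

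PARP1, the main enzyme of ADP-ribose chain synthesis at DNA breaks, was at 448, 448 and 445 CPM in the CDK12 libraries, against 459, 480 and 467 CPM in the controls. All CDK12 libraries lay under all controls, but the gap was small. The log2 fold change of -0.07 (SE 0.04) did not pass the test (edgeR adjusted p = 0.169). PARP2, which shares the break-sensing role of PARP1, had 33.60, 30.07 and 27.76 CPM in the CDK12 libraries, against 33.96, 35.49 and 33.97 CPM in the controls. CDK12 replicate 1 was close to the controls and replicate 3 the farthest from them. The log2 fold change was -0.17 (SE 0.065; edgeR adjusted p = 0.0367), and the call was lost when any 1 of CDK12 replicate 2, CDK12 replicate 3 or the 3 controls was left out (adjusted p from 0.057 to 0.217). PARP3, an enzyme that adds single units at breaks, had 16.2, 14.6 and 16.6 CPM in the CDK12 libraries, against 14.8, 14.3 and 16.4 CPM in the controls, with groups that overlapped. Its log2 fold change was 0.06 (SE 0.08; edgeR adjusted p = 0.569).

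PARP4, the PARP of the vault particle, had 50.85, 52.52 and 54.98 CPM in the CDK12 libraries, against 54.70, 55.21 and 52.16 CPM in the controls. PARP8, a little-studied enzyme that adds single units, had 4.76, 4.82 and 4.42 CPM in the CDK12 libraries, against 4.70, 4.61 and 4.71 CPM in the controls. The groups overlapped for both genes, with log2 fold changes of -0.03 (SE 0.05) for PARP4 and -0.00 (SE 0.12) for PARP8 and edgeR adjusted p of 0.651 and 0.993. Their signs turned under other scalings.

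Groups that did not overlap, with the CDK12 libraries lower, were found for 6 of the 10 members, PARP1 among them, and for 23.6% of all genes tested (45.6% when either direction is counted). Ranked by log2 fold change from the lowest, 3.50% of genes tested lay below PARP10, 3.56% below PARP9, 6.13% below DTX3L, 9.26% below PARP12 and 15.8% below PARP14. For PARP1 that share was 35.6%, for PARP2 19.2% and for PARP3 61.2%.

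**Figure D3:**
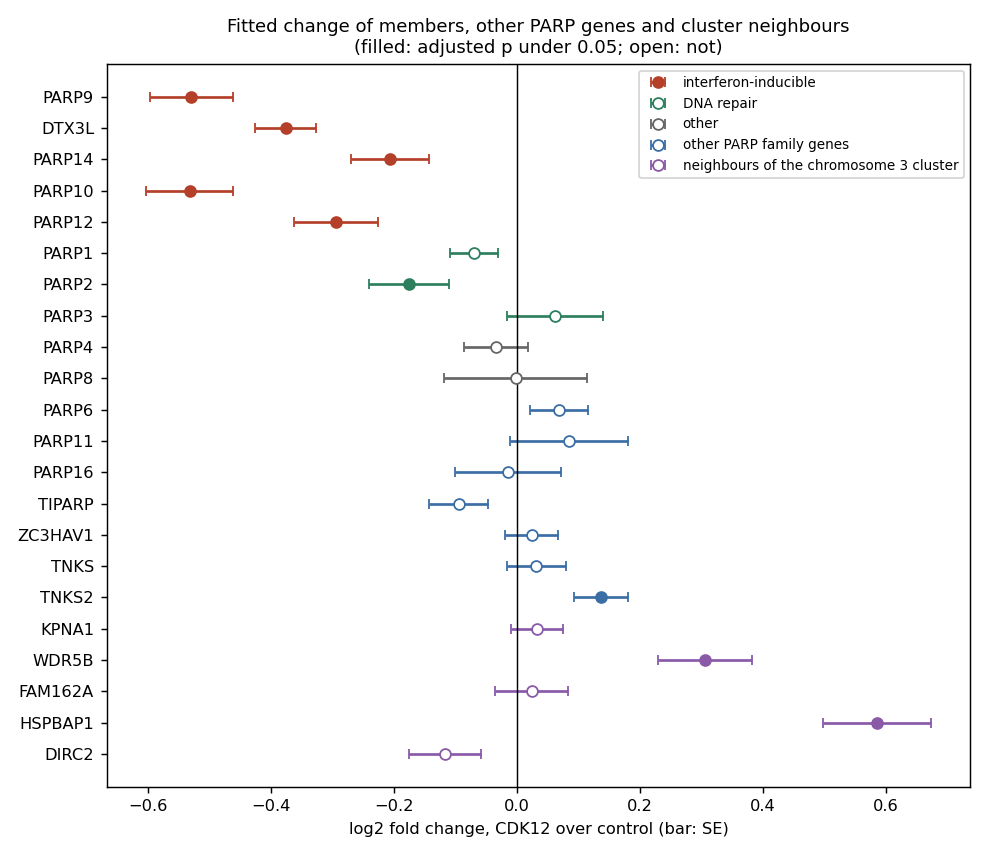
Fitted log2 fold change (x axis, CDK12 over control) with its SE for the members, the 7 tested genes of the other PARP family list and the 5 tested neighbours of the chromosome 3 cluster; filled points passed an adjusted p of 0.05. The 5 interferon-inducible members lie between -0.53 and -0.21, while WDR5B and HSPBAP1, beside the cluster, lie at 0.31 and 0.59.

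The contrast between interferon-inducible and DNA-repair members was read within each library, where the scaling of libraries cancels. The mean log2 CPM of the 5 inducible members exceeded that of the 3 repair members by 0.31, 0.40 and 0.40 in the CDK12 libraries, against 0.92, 0.59 and 0.55 in the controls. All CDK12 libraries had the smaller gap, and control replicate 1 the widest. Relative to the control mean, the inducible members stood at -0.38, -0.39 and -0.37 on the log2 scale in the CDK12 libraries and at 0.20, -0.10 and -0.11 in the controls. The repair members stood at 0.00, -0.10 and -0.08 in the CDK12 libraries and at -0.03, 0.00 and 0.03 in the controls. These are descriptions without a test, since the 2 sets were formed with results known.

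Pairs of members were compared through the ratio of their counts in each library. DTX3L over PARP9 was 1.25, 1.19 and 1.27 in the CDK12 libraries, against 1.03, 1.16 and 1.17 in the controls. PARP14 over PARP9 was 2.6, 2.66 and 2.79 in the CDK12 libraries, against 2.12, 2.21 and 2.10 in the controls. PARP9 over PARP1 was 0.156, 0.165 and 0.152 in the CDK12 libraries, against 0.260, 0.198 and 0.193 in the controls. The groups did not overlap for any of these 3 ratios, so PARP9 was lower relative to DTX3L, PARP14 and PARP1 in every CDK12 library than in any control. The log2 differences (CDK12 minus control) were 0.15, 0.32 and -0.45 in the order given. Each exact two-sided permutation test gave p = 0.1, also after Benjamini-Hochberg adjustment over the 3, which is the smallest p that 3 against 3 libraries allow. PARP9 and DTX3L overlap at their starts in RefSeq, and reads there cannot be assigned without strand.

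Levels between members were compared per kilobase of exon, taken from GENCODE 29, whose exons need not be those the authors counted. PARP1 was far above the rest at 105 ± 0.43 CPM per kilobase in the CDK12 libraries and 110 ± 2.5 in the controls (SD, n = 3). In the CDK12 libraries PARP14 (23.8 ± 0.88) and PARP10 (22.8 ± 1.7) came next with overlapping ranges, followed by PARP2 (15 ± 1.4) and DTX3L (14.8 ± 0.15), whose ranges also overlapped. PARP4 (9.64 ± 0.38), PARP9 (8.98 ± 0.39) and PARP12 (8.04 ± 0.67) formed a run in which each overlapped the next. PARP3 (6.39 ± 0.43) and PARP8 (0.589 ± 0.027) closed the order. In the controls PARP10 (32.9 ± 5.4) stood above PARP14 (27.5 ± 4.2) within overlapping ranges. There DTX3L (19.3 ± 1.6) stood above PARP2 (16.9 ± 0.43) and PARP9 (13.0 ± 2.0) above PARP4 (9.87 ± 0.30) without overlap, all as CPM per kilobase.

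STAT2 and IRF9, which are parts of ISGF3, fell in the CDK12 libraries. IRF9 had 21.8, 22.7 and 23.9 CPM in the CDK12 libraries, against 87.3, 67.9 and 67.6 CPM in the controls. STAT2 had 47.5, 48.2 and 50.5 CPM, against 75.3, 62.7 and 63.1 CPM. Control replicate 1 was the highest control for both, as it was for the interferon-inducible members. The log2 fold changes were -0.46 (SE 0.06) for STAT2 and -1.71 (SE 0.075) for IRF9, each with an edgeR adjusted p no larger than 8.04e-07.

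The 4 genes of the chromosome 3 cluster and the tested genes on both sides did not move as 1 block. PARP15, between DTX3L and PARP14, had 3, 3 and 0 counts in the CDK12 libraries and 1, 3 and 1 in the controls, at or under the limit of 3 counts that a count of 0 allows, and was not tested. HSPBAP1, next to PARP14, had 15.39, 15.45 and 13.05 CPM in the CDK12 libraries, against 9.752 ± 0.659 CPM in the controls (SD, n = 3), and the groups did not overlap. It rose with a log2 fold change of 0.59 (SE 0.09; edgeR adjusted p = 7.24e-06). WDR5B, the second gene on the PARP9 side, rose as well (log2 fold change 0.31, SE 0.08, edgeR adjusted p = 0.00274). KPNA1, the nearest gene on that side, was at 0.03 (SE 0.04), FAM162A at 0.02 (SE 0.06) and DIRC2 at -0.12 (SE 0.06) on the log2 scale, with adjusted p of 0.586, 0.785 and 0.127 by the same test. SEMA5B, the third gene on the PARP14 side, had 0, 3 and 0 counts in the CDK12 libraries and 1, 1 and 2 in the controls, and was not tested.

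For likeness of pattern, the Euclidean distance between log2(CPM + 0.5) profiles over the 6 libraries was taken, each gene centred at its mean. Over 14665 genes, those near to PARP9 included SP110 (distance 0.03), GBP1 (0.10), IFIH1 (0.12) and PCLO (0.14). SP110, GBP1 and IFIH1 are known interferon-stimulated genes, and PCLO encodes a presynaptic scaffold protein. By distance from PARP9, STAT2 ranked 10th, DTX3L 26th, PARP10 71st, PARP12 469th, PARP14 492nd and IRF9 14269th. From DTX3L, PARP9 ranked 530th and STAT2 48th. The distance depends on the size of the change too, so genes with a like fold change come out near. Those near to DTX3L included TTC12 (0.07), TRIM52-AS1 (0.08), EFEMP1 (0.10) and HSH2D (0.10). For PARP14 they were TNRC6C (0.13), TNIK (0.13), LOC101927630 (0.13), NAV2 (0.14) and DST (0.15), and of these only NAV2 and DST passed the edgeR quasi-likelihood test.

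PARP genes outside the 10 had log2 fold changes from -0.09 to 0.14. Of 8 listed, 7 were tested, 1 was called higher and 0 were called lower. Higher calls covered 16.2% and lower calls 18.9% of all genes tested, and nothing is read from the counts of so short a list. TNKS2, a tankyrase that marks proteins for degradation, had 145 ± 3.11 CPM in the CDK12 libraries and 132 ± 6.16 CPM in the controls (SD, n = 3; log2 fold change 0.14, SE 0.04, edgeR adjusted p = 0.0159), a call lost without CDK12 replicate 2 (0.0584) or control replicate 3 (0.134). ZC3HAV1, the antiviral zinc-finger PARP also called PARP13, had 146 ± 4.02 CPM and 144 ± 4.50 CPM (log2 fold change 0.02, SE 0.04). TIPARP was at 73.6 ± 4.0 and 78.6 ± 1.37 CPM, TNKS at 66.3 ± 1.49 and 64.8 ± 2.07 CPM, PARP6 at 78.5 ± 1.62 and 74.9 ± 3.45 CPM, PARP11 at 8.605 ± 0.54 and 8.11 ± 0.57 CPM and PARP16 at 11.7 ± 0.82 and 11.7 ± 0.84 CPM, each with the CDK12 libraries first. The adjusted p of these 6 genes lay between 0.131 and 0.921. The label interferon-inducible was given only to members so named above. Whether interferon induces any of these other PARP genes was not examined, so the fall is not stated for all interferon-inducible PARP genes.

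Of the 4 other Deltex ligases, the relatives of DTX3L, 0 were called lower, and DTX3 and DTX1 were called higher. Over all genes tested, lower calls were made for 18.9% and higher calls for 16.2%. With only 4 genes, nothing is read from these counts. DTX3 had 41.0 ± 1.11 CPM in the CDK12 libraries and 36.6 ± 1.42 CPM in the controls (log2 fold change 0.16, SE 0.06, edgeR adjusted p = 0.0249). DTX1 had 37, 42 and 18 counts in the CDK12 libraries and 16, 19 and 18 in the controls, so that the groups overlapped (log2 fold change 0.73, SE 0.28, adjusted p = 0.0405 by the same test). DTX1 was not called without CDK12 replicate 1 (0.0852), CDK12 replicate 2 (0.257), control replicate 1 (0.114) or control replicate 3 (0.105), nor with the DESeq2 Wald test (0.138) or limma-voom (0.0818), and its log2 fold change was 0.47 without CDK12 replicate 2. DTX3 was not called without CDK12 replicate 2 (0.0553), CDK12 replicate 3 (0.0876), control replicate 1 (0.0658) or control replicate 2 (0.11).

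Of 10 genes grouped here as ADP-ribose erasers and their relatives, MACROD2 fell and ADPRHL1 rose (edgeR adjusted p = 0.0343 and 0.049). Both calls were close to the threshold and lost under several other settings. PARG, the main glycohydrolase of ADP-ribose chains, had 27.8 ± 1.29 CPM in the CDK12 libraries and 30.4 ± 1.45 CPM in the controls and was not called (adjusted p = 0.102). Of 12 cofactors and readers, 2 fell and 1 rose; over all genes tested, 35.1% were called in either direction. CHD1L, a chromatin remodeller that binds ADP-ribose chains, had 67.1 ± 3.24 CPM in the CDK12 libraries and 77.2 ± 2.62 CPM in the controls (log2 fold change -0.20, adjusted p = 0.00199). XRCC1, the scaffold that PARP1 chains bring to single-strand breaks, had 42.8 ± 0.50 CPM and 49.0 ± 1.30 CPM (log2 fold change -0.20, adjusted p = 0.00408). POLB, the gap-filling polymerase that binds XRCC1, rose with a log2 fold change of 0.22 (adjusted p = 0.0185), which was lost without CDK12 replicate 1 (0.173) or control replicate 3 (0.102). HPF1, the cofactor that directs PARP1 and PARP2 to serine and is listed under its older symbol C4orf27, had 10.95 ± 0.715 CPM in the CDK12 libraries and 10.51 ± 0.681 CPM in the controls (adjusted p = 0.612).

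Genes for the synthesis of NAD+, the substrate of the active PARP enzymes, held 3 that rose and 1 that fell among 9 tested. NMRK1, a kinase of nicotinamide riboside, had 427, 396 and 378 counts in the CDK12 libraries and 253, 222 and 314 in the controls, with a log2 fold change of 0.47 (SE 0.08; edgeR adjusted p = 4.89e-05). QPRT, of the synthesis route from tryptophan, had 86.4 ± 3.51 CPM and 75.8 ± 2.42 CPM (log2 fold change 0.19, adjusted p = 0.00252). NMNAT1, the nuclear enzyme that makes NAD+, rose with a log2 fold change of 0.32 (adjusted p = 0.0116; 0.0723 without CDK12 replicate 2). NMNAT2, its cytosolic relative, had 10, 6 and 8 counts in the CDK12 libraries and 19, 11 and 22 in the controls (log2 fold change -1.24, SE 0.34, adjusted p = 0.00603). NAMPT, the main salvage enzyme, was at 217 ± 10.4 CPM and 210 ± 9.50 CPM and was not called (adjusted p = 0.409). Over the 5 lists together, 4 of 42 tested genes were lower and 8 higher, beside lower calls for 18.9% and higher calls for 16.2% of all genes tested, so that nothing is read from the higher count. The median log2 fold change over the lists was 0.03; the higher count was 3 without CDK12 replicate 2 and 4 without control replicate 3.

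**Figure D4:**
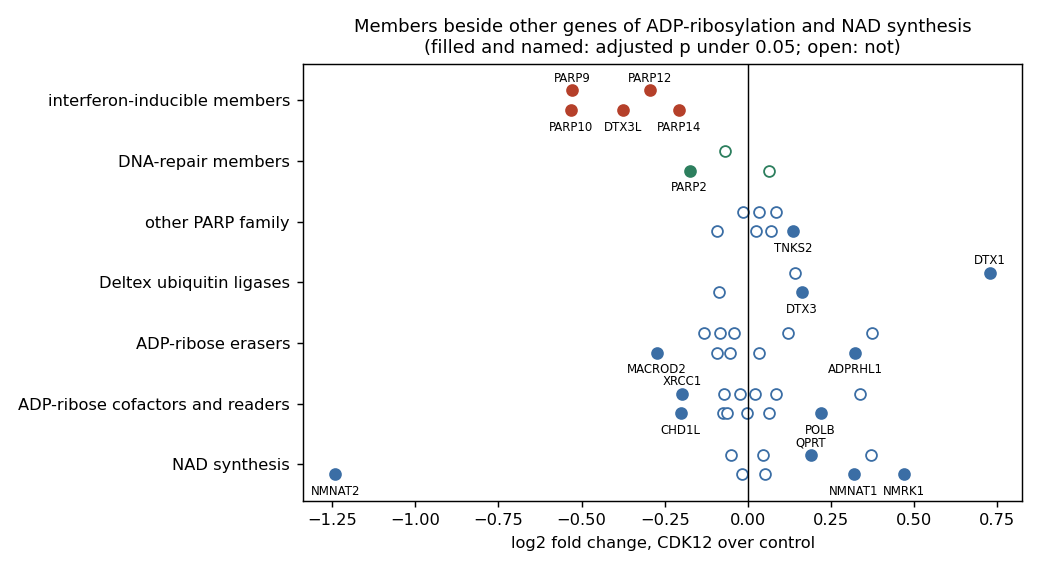
Fitted log2 fold change (x axis, CDK12 over control) of the interferon-inducible and DNA-repair members above 5 lists of related genes, 1 point per tested gene; filled and named points passed an adjusted p of 0.05. The 5 inducible members all lie left of 0, and the filled points of the other lists, from NMNAT2 at -1.24 to DTX1 at 0.73, lie on both sides.

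Leaving out libraries or changing the fit set the number of lower members between 4 and 6. It was 4 without control replicate 1, where PARP14 and PARP2 were lost and lower calls covered 15.2% of all genes tested, and 4 with the DESeq2 Wald test (15.5%). It was 5 without CDK12 replicate 2 (15.8%), CDK12 replicate 3 (17.3%), control replicate 2 (17.5%) or control replicate 3 (14.8%), and 5 when libraries were scaled by upper quartiles (14.6%) or by totals (14.1%), PARP2 being lost in each of these. It was 6 without the filter on low counts (13.2%) and under the other settings tried (18.3% to 19.3%).

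**Figure D5:**
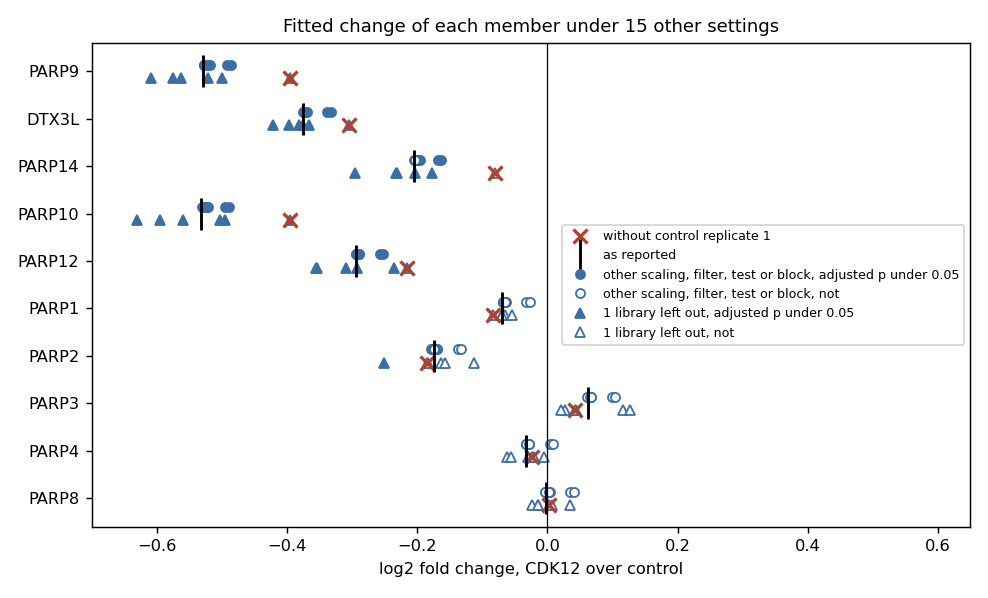
Fitted log2 fold change (x axis, CDK12 over control) of each member as reported (black bar), under 9 other scalings, filters, tests or a block (circles) and without 1 library (triangles); filled symbols passed an adjusted p of 0.05, and crosses mark the fit without control replicate 1. PARP9, DTX3L, PARP10 and PARP12 stayed below 0 and filled throughout, and the PARP14 cross moved to -0.08.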

How the data were processed

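The authors deposited raw counts of reads per gene symbol, 1 file per library; the values are whole numbers with a different total in each library. Per the labels' protocols, polyadenylated RNA was captured, the kit kept strand information, and 100 nt paired reads were taken. CASAVA 1.8, STAR 2.6.0c, Subread 1.6.2 with featureCounts, and the build hg19 are named, per the submitters' processing notes. Not given in the sources used here are the annotation, the strand setting of counting and the treatment of multi-mapped reads. Overlapping genes and genes with near copies are therefore uncertain.

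Genes were kept by filterByExpr of edgeR 4.0.16 (minimum count 10, minimum total 15; 14665 of 26364), scaled by TMM and compared with the quasi-likelihood F test, group as the only term, Benjamini-Hochberg adjusted over all genes tested at 0.05. The SE is the log2 fold change divided by the square root of F. The limit for a count of 0 was 3 counts (0.112 to 0.144 CPM) and covers counting error only. Pairs of replicates differed by more than counting noise, with a chi-square per degree of freedom of 2.74 to 4.54. The alternatives used DESeq2 1.42.0 and limma 3.58.1. HPF1 was matched through RefSeq synonyms; all 44 symbols of the wider lists were found. Members, lists and the rule for naming genes (all members, parts of ISGF3, all PARP genes of the wider list, up to 3 called genes per list and direction, cluster neighbours and the 5 nearest patterns) were chosen with earlier results of these data known. PARG, HPF1, NAMPT, PTPRC, CD14, CD68, COL3A1, COL1A2, CD3D, CD3E and COL1A1 were named outside the rule. So were EPCAM, KRT7, KRT8, KRT18, KRT19, GATA3, FOXA1, ESR1, ERBB2 and CDH1. Some genes that this rule names are not reported here.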

Additional observations from a re-analysis of the deposited data

How the results depend on the processing

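Under 15 other settings (3 scalings, 2 filters, 2 other tests, the replicate number as a block, CDK12 left out of the counts, and each library left out in turn), PARP9, PARP10, PARP12 and DTX3L were called lower each time, and PARP1, PARP3, PARP4 and PARP8 never passed. Lower members numbered 4 with the DESeq2 Wald test and without control replicate 1, and 5 or 6 otherwise. PARP14 was not called with the DESeq2 Wald test (-0.20), and leaving out 1 library moved it between -0.2965 and -0.0809. PARP2 was not called with upper-quartile factors (-0.14), total counts (-0.13) or the DESeq2 Wald test (-0.17), and ran from -0.25 to -0.11 with 1 library left out. PARP4 turned to 0.0034 with upper-quartile factors and 0.0089 with total counts. PARP8 turned to 3e-04 with DESeq2 size factors, 0.0349 with upper-quartile factors, 0.0406 with total counts, 0.0038 with the stricter filter, 2e-04 with the DESeq2 Wald test and 0.0029 without CDK12 in the counts, and ran from -0.0238 to 0.035 with 1 library left out. PARP16 turned to 0.023 with upper-quartile factors and 0.0287 with total counts, and ran from -0.0685 to 0.0455 with 1 library left out; FAM162A ran from -0.0251 to 0.064. Higher genes of the wider lists numbered 3 to 8 with 1 library left out. The cause of these changes was not tested. Of all calls, 46.1% were higher with TMM (2371 against 2772 lower). Scaling by upper quartiles made that share 59.6% (3164 against 2144), and scaling by totals 61.7% (3324 against 2064). With the replicate number as a block 6 members were lower, 0 were higher and 5106 genes were called, against 5143. The correlations of same-numbered deviations were -0.09, 0.10 and 0.06. The libraries numbered 2 correlated best with each other, and those numbered 1 and 3 did not correlate best with their own number. These few values cannot settle whether the numbers pair the samples. A log2 fold change near the SE of PARP8 (0.12) is not detectable at its depth of 96 to 128 counts.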

Other observations

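The ISRE letters were also looked up for all tested genes with a RefSeq promoter window. Of 11416 such genes, 449 held them on either strand, and 125 of these (27.8%) were called lower in the CDK12 libraries, against 20.1% of all 11416. Higher calls were made for 15.8% of the 449 and 15.9% of the 11416. The median log2 fold change was -0.04 with the letters and -0.00 over all. These shares are given without a test, and 4 of the 449 are members described above.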
